A study of Rattus norvegicus with 44 samples.

Results

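The measurements described here are those of 10 genes for chaperones, folding enzymes and a regulator of the endoplasmic reticulum (ER) in rat hepatoma cells exposed to nickel, chromium or cadmium. The genes are Hspa5, Hsp90b1, Dnajc3, Sdf2l1, Hyou1, Calr, Pdia3, Pdia4, Herpud1 and Xbp1. They were taken by name, from the array annotation, as the probe sets that name exactly 1 of these genes. This gave 12 probe sets (Hyou1 and Pdia3 have 2 each), and 10 of the 14217 genes that the array's single-gene probe sets name. All 12 passed the filter on low values that left 15521 of 31042 probe sets for testing.

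H4-II-E-C3 is a cell line derived from a rat hepatoma. Flasks of these cells were kept for 24 h in medium without serum, holding NiCl2 at 40, 140 or 400 µM, Na2Cr2O7 at 0.275, 1 or 10 µM, CdCl2 at 0.2, 0.55 or 1.2 µM, or no added metal. The concentrations had been chosen from viability assays, from no loss of cells at the low concentration to the largest loss at the high one. Each of the 9 exposures has 4 arrays, 1 for each biological replicate, and the controls have 8 arrays, 2 for each replicate. Total RNA was made into labelled cRNA with a 2-cycle kit, and the cRNA was hybridised to whole-genome oligonucleotide arrays. The values are log2 expression after robust multi-array averaging (RMA), in which a difference of 1 is a doubling. Neither the labels nor the methods say whether the paired control arrays of a replicate came from separate flasks, so they were averaged before each test. In bulk RNA of this kind, fewer cells of a type and less RNA per cell cannot be told apart.

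The ER folds secreted and membrane proteins, and its chaperones are abundant in hepatocytes, which secrete most plasma proteins. When unfolded proteins build up in the ER, the sensors Ire1, Perk and Atf6 set off the unfolded protein response, in which Xbp1 and Atf6 raise the transcription of chaperone genes and Perk slows translation while raising Atf4 and its target Ddit3 (CHOP). The genes described here are widely used as readouts of the Atf6 and Xbp1 branches.

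The conditions of the arrays need a word before any result. The deposited sample titles and the columns of values are out of step. Here the titles were listed in series order, the 4 titles marked as repeated microarrays were moved to the end, and the titles were given to the columns in that order. The move gives 24 columns another title and 22 of them another condition, and leaves the first 20 columns as labelled. The choice of this order rests on mean ratios tabulated for the same arrays in the study's supplement, so it is not independent of the values. Of 21 changes of member probe sets called at a high concentration, 19 were also called when the first 20 columns alone were fitted, where no title moves (cadmium at 1.2 µM then has a single array, assumed to vary like the rest). That fit took all conditions together, unlike the main fits, which were made for each metal. In it cadmium at 0.55 µM also has a single array, and the nickel and chromium groups hold replicates 1 and 2 alone. With the titles as deposited, 0 of the 21 were called, and 3 of them had the opposite sign. Every result below depends on this order, apart from those said to hold in the first 20 columns.

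No 2 arrays held identical values, and the medians of all arrays lay between 5.931 and 5.995 on the log2 scale. The 4 repeated arrays (nickel at 140 and 400 µM and chromium at 0.275 µM in replicate 4, cadmium at 0.55 µM in replicate 2) were new arrays made from RNA already extracted. In members, they read lower than the mean of the other arrays of their condition in 4 of 4 cases for both Hyou1 probe sets, Pdia3 1398788_at and Dnajc3 (by 0.07 to 0.55), and higher in 4 of 4 for Sdf2l1 (0.07 to 0.41). Without them the changes at 400 µM nickel were 0.76 ± 0.13 for Dnajc3 and 0.46 ± 0.06 for Sdf2l1, both still called. Of 13 hepatocyte markers on the array, 10 were above the filter level of 6.01 in all 8 control arrays, among them Alb with a mean of 14.55, Ttr with 11.87 and Hnf4a with 10.61, whereas Apoa1, Apoa2 and Apoh were not. None of 7 fibroblast, 5 endothelial, 5 macrophage or leukocyte and 3 bile duct markers reached that level in all controls. The mean over the hepatocyte markers was 9.64 to 9.84 in the control arrays, 8.49 to 9.69 at 400 µM nickel, 9.12 to 9.23 at 10 µM chromium and 9.40 to 9.70 at 1.2 µM cadmium. The part of this shift in the results below was not tested.

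At the high concentrations the called genes differed among the 3 metals, but nickel and cadmium shared most of the genes they raised. Compared directly, as given further below, cadmium and nickel were called different in Calr, Hyou1 and 1 probe set of Pdia3. Their differences in Hspa5, Dnajc3 and Sdf2l1 were called in the main fit and lost under several alternatives. Those in Hsp90b1, Pdia4, Xbp1 and Herpud1 were not called. Cadmium at 1.2 µM raised Dnajc3, Sdf2l1, Hyou1, Hspa5 and Hsp90b1 and lowered Pdia4 and Xbp1. Chromium at 10 µM raised none and lowered Xbp1, Pdia4, Hspa5, Calr, Hsp90b1 and Hyou1. Nickel at 400 µM raised Dnajc3, Sdf2l1, Pdia3 (in 1 of its 2 probe sets), Hsp90b1 and Hspa5 and lowered Calr. A change was called at an adjusted p under 0.05 in limma, with Benjamini-Hochberg adjustment over all 15521 probe sets of that contrast.

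In counts of the 12 probe sets, cadmium raised 6 and lowered 2, against 24.5% and 14% of all tested probe sets. Nickel raised 5 and lowered 1, against 24.0% and 16.9%. Chromium raised 0 and lowered 7, against 23.5% and 19.6%. The median log2 change of the member probe sets was 0.26 for cadmium, 0.07 for nickel and -0.35 for chromium, and the medians over all tested probe sets were 0.04, 0.02 and 0.02. The sizes were modest. Only Dnajc3 at 1.2 µM cadmium met the study's stricter rule, a false discovery rate of at most 0.001 for the concentration variable with a 1.8-fold change, a rule met upwards in cadmium by 1.28% of all tested probe sets. In nickel 0 of the 12 met it in either direction, against 1.48% higher and 0.586% lower of all tested, and in chromium 0 met it downwards, against 1.61%. Counted without a model, all 4 exposed arrays lay above all 8 control arrays for 6 member probe sets in cadmium (14.6% of all tested) and 5 in nickel (10.4%), and below them for 7 in chromium (12.2%). The counts below the controls in nickel and cadmium were 0 and 0, against 6.26% and 7.18%.

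At the lower concentrations few calls were made. At 0.55 µM cadmium Dnajc3 rose and Calr fell, 1 probe set of 12 in each direction, against 8.61% and 2.30% of all tested probe sets. At 140 µM nickel no member was called by limma, against 2.66% higher and 0.805% lower, and the member changes ran from -0.06 to 0.28. At 1 µM chromium the members' changes ran from -0.21 to 0.11 with none called, against 0.0322% and 0.0129% of all tested. No member was called at 40 µM nickel, 0.275 µM chromium or 0.2 µM cadmium, where 0%, 0% and at most 0.316% of all tested probe sets were called in a direction.

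**Figure D1:**
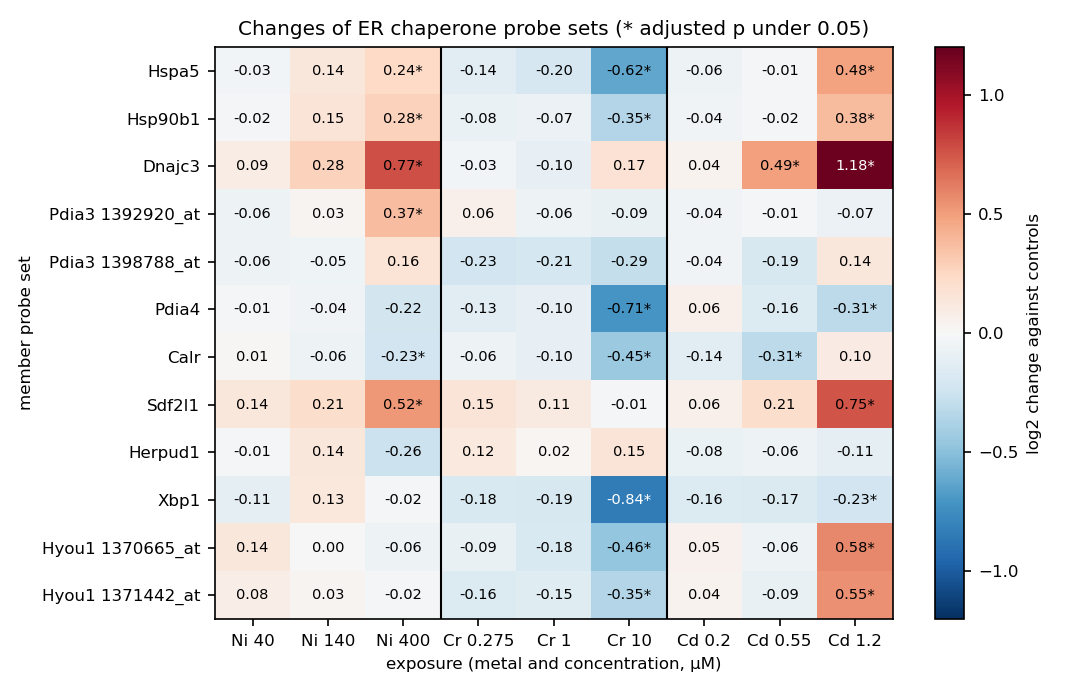
Log2 change of each of the 12 member probe sets (rows) at each of the 9 exposures (columns, metal and concentration in µM) against the controls, from the limma fit of each metal over 4 replicates, with an asterisk at an adjusted p under 0.05. The high-concentration columns carry nearly all of the calls, from -0.84 for Xbp1 at 10 µM chromium to 1.18 for Dnajc3 at 1.2 µM cadmium.

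The promoters of several of these genes hold the ER stress elements through which Atf6 and Xbp1 are known to act, and their letters are shown because they are a feature shared by members that moved in different directions. The first element, ERSE, was searched as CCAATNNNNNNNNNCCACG and the other, ERSE-II, as ATTGGNCCACG, on both strands of the 250 bases before each transcription start and the 50 after it, in the RefSeq promoters of rat assembly GRCr8. ERSE was found in 22 of 33469 promoters (0.0657%) and ERSE-II in 17 (0.0508%). Of the 9 member genes with a promoter in the table, 5 held ERSE (Hspa5, Hsp90b1, Dnajc3, Calr, Xbp1) and 2 held ERSE-II (Herpud1, Hyou1). Hsp90b1 held 2 copies of ERSE, Hyou1 held 2 copies of ERSE-II, and no member held both kinds. The letters CCACG end both elements, and the search was for letters alone. The windows below lie upstream of the start and run 5′ to 3′ on the gene's strand, with the elements in capitals, in either orientation.
Hspa5, chr3:38452948-38453015, plus strand: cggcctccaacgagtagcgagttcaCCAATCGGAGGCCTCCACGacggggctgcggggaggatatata
Hsp90b1, chr7:23012322-23012494, minus strand: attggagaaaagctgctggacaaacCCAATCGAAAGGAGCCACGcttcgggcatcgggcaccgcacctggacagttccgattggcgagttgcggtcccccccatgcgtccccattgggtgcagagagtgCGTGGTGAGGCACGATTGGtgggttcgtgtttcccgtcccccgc
Dnajc3, chr15:102432509-102432577, plus strand: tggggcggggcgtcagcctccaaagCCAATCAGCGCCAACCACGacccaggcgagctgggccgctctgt
Calr, chr19:40213117-40213178, plus strand: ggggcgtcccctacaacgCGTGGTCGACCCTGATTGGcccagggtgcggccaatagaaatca
Xbp1, chr14:84604533-84604601, plus strand: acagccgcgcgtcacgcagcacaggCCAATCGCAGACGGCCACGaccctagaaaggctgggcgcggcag
Herpud1, chr19:10614796-10614856, minus strand: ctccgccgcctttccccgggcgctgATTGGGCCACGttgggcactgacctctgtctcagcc
Hyou1, chr8:53602669-53602829, plus strand: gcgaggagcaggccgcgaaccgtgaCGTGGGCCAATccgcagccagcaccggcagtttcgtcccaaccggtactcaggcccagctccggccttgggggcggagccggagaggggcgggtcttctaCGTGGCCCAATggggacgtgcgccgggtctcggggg

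In Hspa5 the element ended 25 bases before the start and began 43 bases before it, in Xbp1 it lay at 65 to 47 bases, in Dnajc3 at 133 to 115 and in Calr, in the opposite orientation, at 232 to 214. The 5 genes with ERSE did not move as 1 group. In cadmium at 1.2 µM 3 of them rose and 1, Xbp1, fell. At 400 µM nickel 3 rose and 1, Calr, fell, and at 10 µM chromium 4 fell and none rose. Of the 2 genes with ERSE-II, Hyou1 rose at 1.2 µM cadmium and fell at 10 µM chromium, and Herpud1 was called at none of the high concentrations. ERSE was also found in 16 genes that are no members, 9 of which were tested. Of these, 4 rose and 1 fell at 1.2 µM cadmium. Canx, a lectin chaperone of the ER membrane, rose there by 0.37 ± 0.06 (SE, limma adjusted p = 0.000312). The largest change of the 9 was that of Zfand2a, at 2.25 ± 0.16 in cadmium. Zfand2a also rose by 1.04 ± 0.09 in chromium and 1.14 ± 0.20 in nickel. Creld2 changed by 0.41 ± 0.09 in cadmium and by -0.26 ± 0.08 in nickel. Of the 9, 2 rose and 3 fell at 10 µM chromium, and 3 rose and 1 fell at 400 µM nickel. Of all tested probe sets, 24.5% rose and 14% fell in cadmium, 23.5% and 19.6% in chromium, and 24.0% and 16.9% in nickel. Several counts in the 9 genes lie near these shares. Whether the counts of these genes or of the members differ from the shares was not tested. A match of letters is a description, and binding was not measured.

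Hspa5 encodes BiP, the abundant Hsp70 of the ER that binds exposed hydrophobic stretches and holds the stress sensors inactive. In the 8 control arrays its log2 value ran from 12.03 through a median of 12.13 to 12.21. The 4 arrays at 1.2 µM cadmium, in replicate order, read 12.64, 12.40, 12.74 and 12.60, all above every control. At 400 µM nickel they read 12.40, 12.42, 12.23 and 12.37, also all above the controls but with the lowest close to them. The arrays at 10 µM chromium read 11.55, 11.66, 11.33 and 11.45, all below the controls. The log2 change was 0.48 ± 0.09 (SE) in cadmium, a 1.39-fold rise (limma adjusted p = 0.00128), and -0.62 ± 0.08 in chromium, a fall to 0.650 of the control level (adjusted p = 4.85e-05). In nickel it was 0.24 ± 0.07 (adjusted p = 0.0155), higher in 4 of 4 replicates. The nickel call was lost without replicate 1 (adjusted p = 0.0517), without replicate 2 (0.0724), without the replicate block (0.0762) and after quantile normalization (0.0904), while the chromium and cadmium calls held under each of these. In the first 20 columns alone the changes were 0.24 in nickel and -0.56 in chromium, both called, and 0.53 in cadmium, from a single array.

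Hsp90b1 encodes Grp94, the Hsp90 of the ER, and followed Hspa5. Its controls ran from 11.79 through a median of 11.86 to 11.94. The cadmium arrays at 1.2 µM read 12.24, 12.12, 12.35 and 12.29, the nickel arrays at 400 µM 12.03, 12.20, 12.22 and 12.15, and the chromium arrays at 10 µM 11.48, 11.53, 11.45 and 11.59. The groups did not overlap the controls in any of these exposures. The log2 change was 0.38 ± 0.06 in cadmium (limma adjusted p = 0.000171), 0.28 ± 0.06 in nickel (adjusted p = 0.00131) and -0.35 ± 0.07 in chromium (adjusted p = 0.000975). All 3 calls held when any 1 replicate was left out.

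Of the genes for helpers of BiP, Dnajc3 and Sdf2l1 were not called in chromium, whereas Hyou1 fell there as Hspa5 did. Dnajc3, also called p58IPK, is a J-domain protein that brings substrates to BiP and also inhibits kinases of eIF2α. Its controls ran from 8.52 through 8.60 to 8.90. At 1.2 µM cadmium the arrays read 9.82, 9.50, 10.07 and 10.04, at 0.55 µM 9.29, 9.11, 9.20 and 9.08, and at 0.2 µM 8.88, 8.94, 8.55 and 8.51. The middle and high concentrations lay wholly above the controls and the low one lay among them, so the values increased with the cadmium concentration. The log2 change was 1.18 ± 0.13 at 1.2 µM, a 2.26-fold rise and the largest of any member (limma adjusted p = 1.54e-05), and 0.49 ± 0.13 at 0.55 µM (adjusted p = 0.0293). The call at 0.55 µM was lost without replicate 1 (adjusted p = 0.0949), 3 (0.166) or 4 (0.0582), without the replicate block (0.0662) and against the Control 2 arrays alone (0.0577).

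Dnajc3 also rose in nickel. The arrays at 400 µM read 9.64, 9.64, 9.17 and 9.35, all above the controls, a log2 change of 0.77 ± 0.11 (limma adjusted p = 0.000124). The arrays at 140 µM read 8.93, 8.97, 9.10 and 8.82, of which the last lay within the control range, and the change of 0.28 ± 0.11 did not pass (adjusted p = 0.178). At 10 µM chromium the arrays read 8.89, 8.86, 8.87 and 8.77, within the control range, with a change of 0.17 ± 0.12 and a 95% interval from -0.09 to 0.42 (adjusted p = 0.287).

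Sdf2l1 forms a complex with the ER J-domain protein Dnajb11 and keeps it active in BiP's cycle. Its controls ran from 8.26 through 8.46 to 8.70, with both arrays of replicate 1 lowest. With 1.2 µM cadmium it read 9.13, 9.04, 9.37 and 9.33 and at 400 µM nickel 8.73, 8.87, 9.06 and 9.27, all above the controls. With 10 µM chromium it read 8.21, 8.23, 8.73 and 8.66, a spread like that of the controls. Changes were 0.75 ± 0.07 in cadmium (limma adjusted p = 3.30e-06), 0.52 ± 0.07 in nickel (adjusted p = 0.000132) and -0.01 in chromium, with a 95% interval from -0.15 to 0.14 (adjusted p = 0.952). At 0.55 µM cadmium the change of 0.21 ± 0.07 stood just outside the threshold (adjusted p = 0.0587), and it passed against the Control 1 arrays alone (adjusted p = 0.0342).

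**Figure D2:**
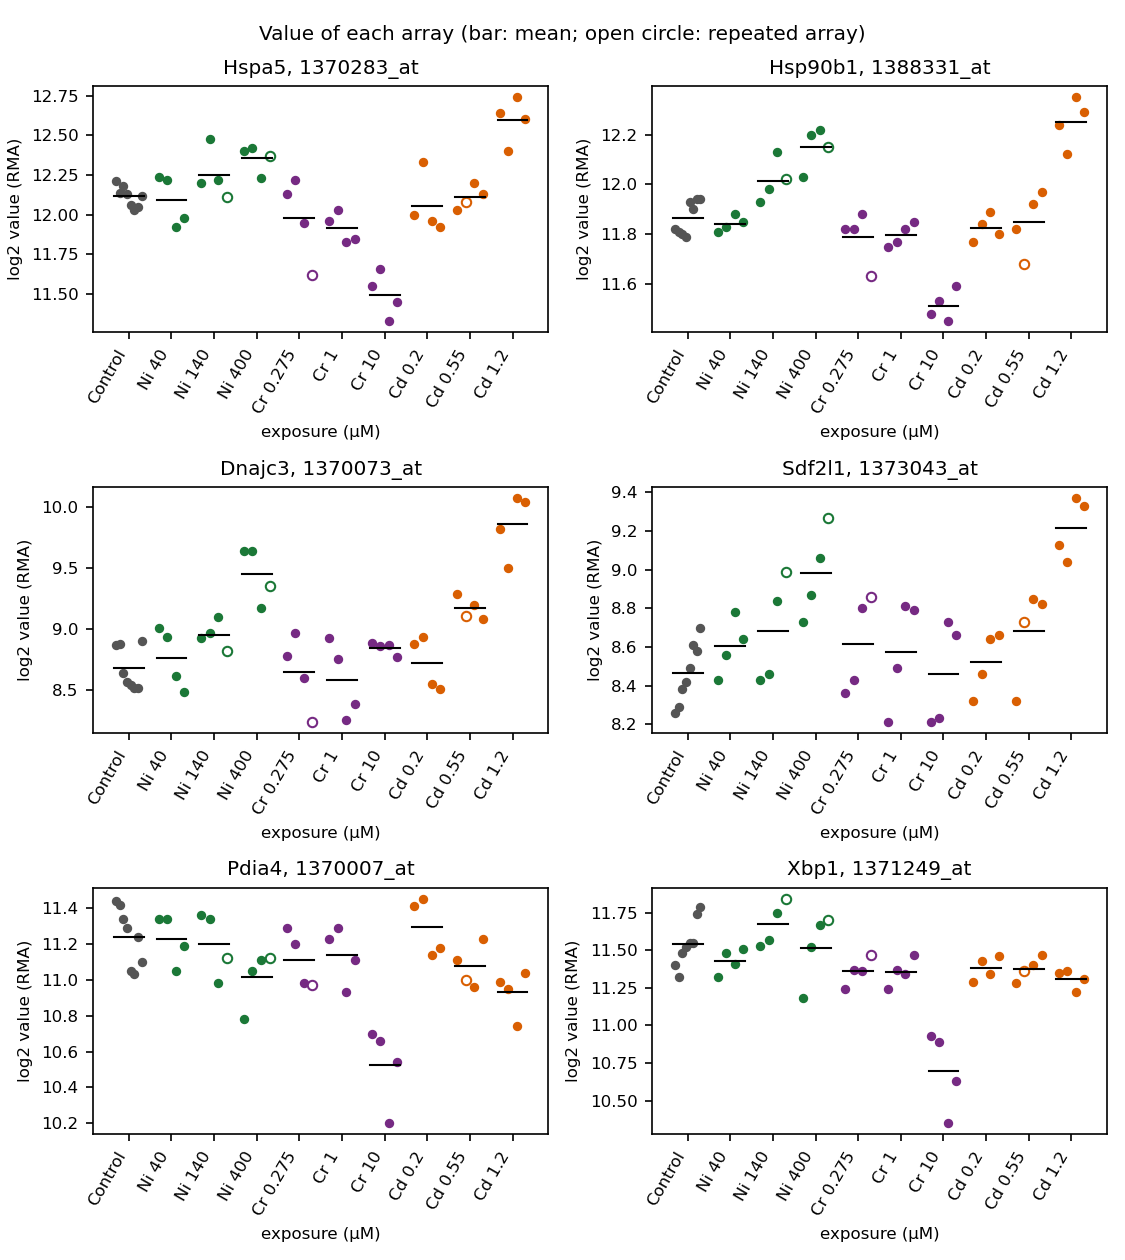
Log2 value of each array for 6 member genes in the controls (8 arrays) and the 9 exposures (4 arrays each, in replicate order from left to right), with a bar at each mean and open circles for the 4 repeated arrays. Hspa5, Hsp90b1, Dnajc3 and Sdf2l1 lie above the controls at 400 µM nickel and 1.2 µM cadmium, and Hspa5, Hsp90b1, Pdia4 and Xbp1 lie below them at 10 µM chromium.

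Hyou1 encodes Grp170, a large Hsp70 relative that exchanges nucleotide on BiP, and is read by the probe sets 1371442_at and 1370665_at. In 1371442_at the controls ran from 8.49 through 8.59 to 8.71. At 1.2 µM cadmium this probe set read 9.18, 9.16, 9.06 and 9.13 and at 10 µM chromium 8.23, 8.17, 8.37 and 8.17, so both groups lay apart from the controls. The log2 change was 0.55 ± 0.14 in cadmium (limma adjusted p = 0.00798) and -0.35 ± 0.10 in chromium (adjusted p = 0.0131). In 1370665_at, whose controls ran from 6.48 through 6.78 to 6.93, close to the filter level, the change was 0.58 ± 0.17 in cadmium (adjusted p = 0.0132) and -0.46 ± 0.18 in chromium (adjusted p = 0.0489). The chromium calls were the weakest of that metal, as both were lost without replicate 1 (adjusted p = 0.0658 and 0.186), without replicate 2 (0.0546 and 0.0798) and in a fit over all 10 conditions (0.0689 and 0.0615), and that of 1370665_at also without replicate 3 (0.0843), without the replicate block (0.0964), against the Control 2 arrays alone (0.0659) and with no filter on low values (0.0613). In cadmium the call of 1371442_at was lost without replicate 1 (adjusted p = 0.0501), and that of 1370665_at without replicate 3 (0.0502) or 4 (0.0562).

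The repeated arrays read low in Hyou1. Against the mean of the other arrays of their condition they were lower by 0.52 to 0.84 in 1371442_at and by 0.71 to 1.07 in 1370665_at, in 4 of 4 cases. At 400 µM nickel, for example, 1371442_at read 8.68, 8.84 and 8.82 in replicates 1 to 3 and 7.94 on the repeated array of replicate 4. The nickel change of this probe set was -0.02 ± 0.13 with that array (limma adjusted p = 0.929) and 0.19 ± 0.07 without the 4 repeated arrays (adjusted p = 0.0368), so its direction and call depend on them. In 1370665_at the change without them was 0.17 ± 0.11 (adjusted p = 0.252). The high chromium and cadmium groups hold no repeated array, and without the repeated arrays the changes of 1371442_at there were -0.35 ± 0.08 (adjusted p = 0.00185) and 0.55 ± 0.05 (adjusted p = 1.79e-06).

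Calr encodes calreticulin, the soluble lectin chaperone that holds glycoproteins and binds calcium in the ER. Its controls ran from 11.75 through 11.80 to 11.90. In 10 µM chromium it read 11.46, 11.25, 11.36 and 11.39, all below the controls, a log2 change of -0.45 ± 0.06 (limma adjusted p = 8.91e-05). Calr and Hspa5 parted in cadmium. At 0.55 µM the arrays read 11.49, 11.31, 11.57 and 11.67, all below the controls, with a change of -0.31 ± 0.06 (adjusted p = 0.00975). At 1.2 µM they read 11.94, 11.84, 11.94 and 11.92, with a change of 0.10 ± 0.06 and a 95% interval from -0.04 to 0.23 (adjusted p = 0.242). The call at 0.55 µM was lost without replicate 1 (adjusted p = 0.0602) or 3 (0.123) and without the replicate block (0.0519). In the first 20 columns, where 0.55 µM has a single array and so no spread of its own, the change was -0.30. At 400 µM nickel the arrays read 11.52, 11.67, 11.80 and 11.37, overlapping the controls, with a change of -0.23 ± 0.07 (adjusted p = 0.0172) that was lost without replicate 1 (0.0976), 2 (0.0511) or 4 (0.0626), without the replicate block (0.0577) and in the first 20 columns (0.0792).

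The protein disulfide isomerases form and rearrange disulfide bonds. Pdia4, which fell in chromium and in cadmium, and Pdia3 are those among the members. Pdia4 (Erp72) had controls from 11.03 through 11.27 to 11.44. At 10 µM chromium it read 10.70, 10.66, 10.20 and 10.54, all below the controls, a log2 change of -0.71 ± 0.06, to 0.609 of the control level (limma adjusted p = 2.32e-06). At 1.2 µM cadmium it read 10.99, 10.95, 10.74 and 11.04, lower than the controls of the same replicate in 4 of 4 although the groups overlapped, with a change of -0.31 ± 0.08 (adjusted p = 0.00571). This cadmium call was lost without replicate 1 (adjusted p = 0.0570). At 400 µM nickel it read 10.78, 11.05, 11.11 and 11.12, with a change of -0.22 ± 0.10 (adjusted p = 0.0903). This change passed in the first 20 columns, at -0.46 ± 0.09 (adjusted p = 0.000870). It also passed with 8 separate control arrays (0.0271), in 1 fit over all 10 conditions (0.0349) and without replicate 3 (0.0441).

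Pdia3 (Erp57), which works with calreticulin on glycoproteins, is read by 1398788_at at a mean of 12.18 in the controls and by 1392920_at at 6.53, near the filter level. The calls of these probe sets differed. In 1392920_at the controls ran from 6.33 through 6.50 to 6.77, and the nickel arrays at 400 µM read 6.89, 6.98, 6.82 and 6.90, all above them, a log2 change of 0.37 ± 0.10 (limma adjusted p = 0.00904). The chromium and cadmium changes of this probe set at the high concentration were -0.09 and -0.07 (adjusted p = 0.511 and 0.459). In 1398788_at the changes were 0.16 ± 0.08 in nickel (adjusted p = 0.125), -0.29 ± 0.12 in chromium (adjusted p = 0.0612) and 0.14 ± 0.11 in cadmium (adjusted p = 0.307), of which the last passed without replicate 2 (0.0185). All 4 chromium arrays of 1398788_at, at 11.97, 11.85, 11.77 and 11.99, lay below its lowest control of 12.08. Its repeated arrays read lower than the others of their condition by 0.26 to 0.62, in 4 of 4 cases. Without them the changes were 0.23 ± 0.05 in nickel (adjusted p = 0.00505) and -0.29 ± 0.06 in chromium (adjusted p = 0.00216), both called. Both also passed without replicate 4 (limma adjusted p = 0.00860 and 0.00756) and in the first 20 columns, at 0.21 and -0.30. The chromium change passed with 8 separate control arrays as well (0.0133).

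**Figure D3:**
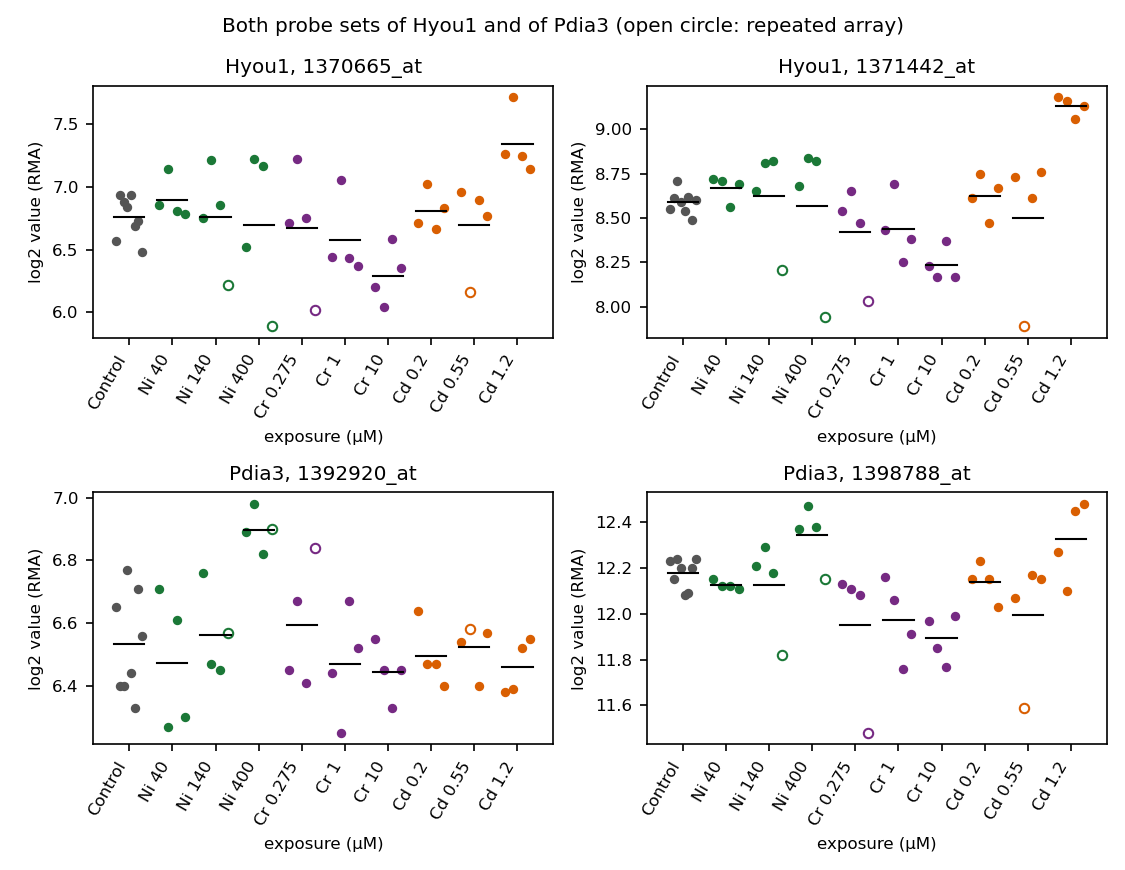
Log2 value of each array for both probe sets of Hyou1 (top) and of Pdia3 (bottom), in the controls and the 9 exposures, with a bar at each mean and open circles for the 4 repeated arrays. In both Hyou1 probe sets and in Pdia3 1398788_at the open circles lie below the other arrays of their condition, at 400 µM nickel at 7.94 against 8.68 to 8.84 in Hyou1 1371442_at.

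Xbp1 encodes a transcription factor of the unfolded protein response, whose active form needs the removal of a short intron from its mRNA by Ire1. Splicing was not measured here, and the values are for the probe set alone. Its controls ran from 11.32 through 11.53 to 11.79, with both arrays of replicate 4 highest. At 10 µM chromium it read 10.93, 10.89, 10.35 and 10.63, all below the controls, a log2 change of -0.84 ± 0.11, to 0.557 of the control level (limma adjusted p = 4.79e-05). In the first 20 columns alone this change was -0.53 ± 0.08 (adjusted p = 0.000511). It was the largest fall of any member over all arrays, but not in the first 20 columns, where Pdia4 fell by 0.69, Hyou1 1370665_at by 0.68 and Hspa5 by 0.56. At 1.2 µM cadmium, where Hspa5 and Hsp90b1 rose, Xbp1 read 11.35, 11.36, 11.22 and 11.31, with a change of -0.23 ± 0.07 (adjusted p = 0.0126). That call was lost without replicate 3 (adjusted p = 0.117) or 4 (0.138). In the first 20 columns, where 1.2 µM cadmium has a single array and so no spread of its own, the change was -0.02. At 400 µM nickel the change was -0.02 ± 0.07 (adjusted p = 0.804).

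Herpud1, an ER membrane protein that helps to assemble the complex that sends misfolded proteins to the proteasome, was called at none of the 9 exposures. Its controls ran from 9.92 through 10.00 to 10.33. At the high concentrations it read 9.55, 9.70, 9.95 and 10.08 in nickel, 10.44, 10.37, 10.06 and 10.07 in chromium and 9.90, 9.69, 10.16 and 10.13 in cadmium, each group overlapping the controls. The changes were -0.26 ± 0.12 in nickel (limma adjusted p = 0.116), 0.15 ± 0.10 in chromium (adjusted p = 0.225) and -0.11 ± 0.12 in cadmium (adjusted p = 0.518). The cadmium interval, from -0.37 to 0.16, does not reach the size of the Hspa5 change. The first 20 columns gave -0.47 ± 0.08 in nickel (adjusted p = 0.000430) and 0.31 ± 0.08 in chromium (adjusted p = 0.00948), both called, in directions opposite to those of Hspa5. The nickel change also passed without the repeated arrays (adjusted p = 0.0439) and with 8 separate control arrays (0.0468), and the chromium change without replicate 4 (0.0300).

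**Figure D4:**
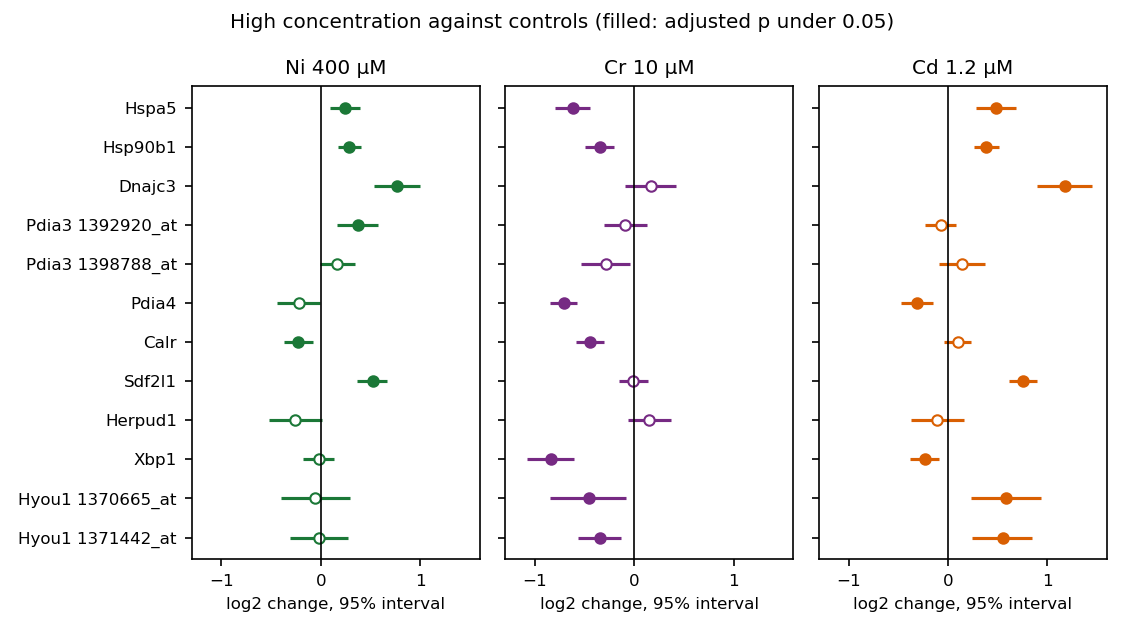
Log2 change against controls with its 95% interval for the 12 member probe sets at the high concentration of nickel, chromium and cadmium (limma, 4 replicates), with filled points at an adjusted p under 0.05. The filled points number 5 to the right and 1 to the left of 0 in nickel, 0 and 7 in chromium, and 6 and 2 in cadmium.

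The metals were also compared with each other at their high concentrations, in 1 limma fit over all conditions with each contrast adjusted over the 15521 probe sets. These are concentrations of unequal size, set by viability, so each difference is one between exposures. Cadmium exceeded chromium in 10 of the 12 probe sets and fell short in 0, against 24.8% and 19.6% of all tested. Nickel exceeded chromium in 9 and fell short in 1, Herpud1, against 23.2% and 22.1%. Cadmium exceeded nickel in 6 and fell short in 1, against 25.3% and 20.5%. The members stood furthest apart between cadmium and chromium, with a median log2 difference of 0.67 over the member probe sets, and 0.02 over all tested.

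In Hspa5, cadmium stood above chromium by 1.10 ± 0.09 (adjusted p = 3.11e-11) and nickel above chromium by 0.86 ± 0.09 (adjusted p = 2.90e-09). The difference between cadmium and nickel was 0.24 ± 0.09 (adjusted p = 0.0294). It was lost without replicate 1 (0.110), 3 (0.290) or 4 (0.0558) and without the replicate block (0.0760). In the first 20 columns, where the high cadmium group has a single array, it was 0.29. Dnajc3, the gene most raised by both, was higher in cadmium than in nickel by 0.41 ± 0.13 (adjusted p = 0.0107), which was lost without replicate 3 (0.195) or 4 (0.0898). In the first 20 columns, with that single cadmium array, the Dnajc3 difference was 0.16. Sdf2l1 was higher in cadmium by 0.24 ± 0.07 (adjusted p = 0.00605), and this too was lost without replicate 1 (0.0888) or 3 (0.0635) and without the replicate block. For Hsp90b1 the same difference was 0.10 ± 0.06, with a 95% interval from -0.02 to 0.22 (adjusted p = 0.163).

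Calr and Hyou1 separated cadmium from nickel. Calr was higher in cadmium by 0.32 ± 0.07 (adjusted p = 0.000183). Hyou1 1371442_at was higher by 0.56 ± 0.16 (adjusted p = 0.00385) and 1370665_at by 0.64 ± 0.20 (adjusted p = 0.00991), comparisons in which the low repeated array of the nickel group takes part. Without the 4 repeated arrays both remained called, and the call of 1370665_at was lost without replicate 1 (0.0820) or 4 (0.0847). Pdia3 1392920_at was lower in cadmium than in nickel by a log2 difference of -0.44 ± 0.10 (adjusted p = 0.000375). Herpud1 was lower in nickel than in chromium by a log2 difference of -0.41 ± 0.13 (adjusted p = 0.00762), a call lost without replicate 1 (0.194) or 2 (0.0743) and kept with the titles as deposited. For Pdia4 and Xbp1 the difference between cadmium and nickel was -0.08 (95% interval from -0.26 to 0.09, adjusted p = 0.444) and -0.21 (from -0.40 to -0.02, adjusted p = 0.0625).

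Other genes of the secretory pathway were counted in the same fits, with 1 probe set per gene. Their lists were chosen by function, with earlier results of these data known. The shares of all tested probe sets to set beside these counts are 24.0% higher and 16.9% lower in nickel, 23.5% and 19.6% in chromium, and 24.5% and 14% in cadmium. Of 32 other ER folding genes tested, 17 rose and 2 fell at 400 µM nickel, 1 rose and 16 fell at 10 µM chromium, and 10 rose and 3 fell at 1.2 µM cadmium. The 10 became 6 without replicate 3. On the same 1-probe-set basis, 4 of the 10 members rose and 1 fell in nickel, 0 and 6 in chromium, and 5 and 2 in cadmium. Ero1a, the oxidase that recharges disulfide isomerases, rose by 2.21 ± 0.10 in nickel (limma adjusted p = 5.10e-08) and changed by -0.49 ± 0.10 in cadmium (adjusted p = 0.00163). Pdia5 rose by 0.99 ± 0.12 (adjusted p = 3.85e-05) and P4hb, the main disulfide isomerase, by 0.81 ± 0.09 (adjusted p = 2.51e-05) in nickel, and fell by 0.38 and 0.27 in chromium (adjusted p = 0.000458 and 0.0167). Dnajb9, a J-domain cochaperone of BiP, rose in both nickel, by 0.80 ± 0.09 (adjusted p = 1.66e-05), and cadmium, by 0.64 ± 0.09 (adjusted p = 0.000134), and read -0.03 in chromium (adjusted p = 0.830).

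Of 30 genes of translocation into the ER and export from it, 19 rose and 2 fell in nickel, 2 rose and 8 fell in chromium, and 14 rose and 0 fell in cadmium. The 14 became 6 without replicate 3, 8 without replicate 4 and 9 with no replicate block. The 19 became 11 without replicate 2, and the 8 became 5 without replicate 2 and 3 with no block. Kdelr3, a receptor that returns escaped ER proteins, rose by 0.88 ± 0.21 in nickel (limma adjusted p = 0.00504) and 1.01 ± 0.13 in cadmium (adjusted p = 5.75e-05). Of 25 genes of ER-associated degradation, the route from which Herpud1 comes, 9 rose and 0 fell in nickel, 9 rose and 6 fell in chromium, and 12 rose and 1 fell in cadmium. Chromium's shares were 36% higher and 24% lower, the latter near the background of 19.6%. The 9 of nickel became 5 without replicate 2, with 5 lower in the first 20 columns, the 9 of chromium became 5 without replicate 2 and 4 with no block, and the 12 became 7 without replicate 3. Edem2, which trims mannose from misfolded glycoproteins, fell by 0.79 in chromium (adjusted p = 1.01e-05).

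Among 16 sensors and regulators of the unfolded protein response, 6 rose and 5 fell in nickel, 3 and 5 in chromium, and 4 and 2 in cadmium. The cadmium shares in the main fit, 25% and 12.5%, are near the background (24.5% and 14%), but the counts moved with the processing. The 4 higher became 8 without the repeated arrays and 7 with 8 separate control arrays. The 2 lower became 4 with 8 separate control arrays and 5 after quantile normalization. They became 0 without replicate 3 and 1 without replicate 4. Leaving out 1 replicate brought the nickel counts down to 2 higher (without replicate 2) and 2 lower (without replicate 1 or 2), and with no replicate block they were 2 and 2. Nfya, a subunit of the factor that binds CCAAT, rose by 0.75 ± 0.08 in chromium (limma adjusted p = 9.48e-06). Creb3l3, an ER-anchored factor of hepatocytes, fell by 0.98 in chromium (adjusted p = 3.45e-06) and 0.64 in nickel (adjusted p = 0.00135). In the list of 16 genes of the Atf4 and CHOP arm, 8 rose and 2 fell in nickel, 5 and 1 in chromium, and 6 and 1 in cadmium. These are 50%, 31.2% and 37.5% higher, against 24.0%, 23.5% and 24.5% of all tested. The 8 became 5 without replicate 1, 2 without replicate 2 and 2 with no replicate block, and the 5 became 3 without replicate 1, 1 without replicate 3 and 1 with no block. In the first 20 columns 4 fell in cadmium. In cadmium Atf3 rose by 3.25 ± 0.15 (adjusted p = 1.17e-08), Ddit3 by 1.92 ± 0.17 (adjusted p = 2.92e-06) and Ppp1r15a, which restores translation, by 1.58 ± 0.09 (adjusted p = 6.78e-08). In chromium, where Hspa5 fell, Atf3 rose by 1.08 ± 0.13 (adjusted p = 1.98e-05). Ddit3 rose there by 0.51 ± 0.18, a call nearer the threshold (adjusted p = 0.0357).

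The cytosolic heat shock genes, which answer unfolded proteins outside the ER, were counted for comparison. That list too was chosen with earlier results of these data known. Of 16 tested, 14 rose and 0 fell in cadmium, 9 rose and 1 fell in chromium, and 6 rose and 2 fell in nickel. The 6 became 2 without replicate 1 and 2 without replicate 2. Hspa1a, the inducible cytosolic Hsp70, rose by 4.78 ± 0.37 in cadmium (limma adjusted p = 8.74e-07), whereas its ER relative Hspa5 rose by 0.48 ± 0.09 (adjusted p = 0.00128). Cryab rose by 1.77 ± 0.07 in cadmium (adjusted p = 1.75e-09) and fell by 1.13 in nickel (adjusted p = 1.32e-06).

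**Figure D5:**
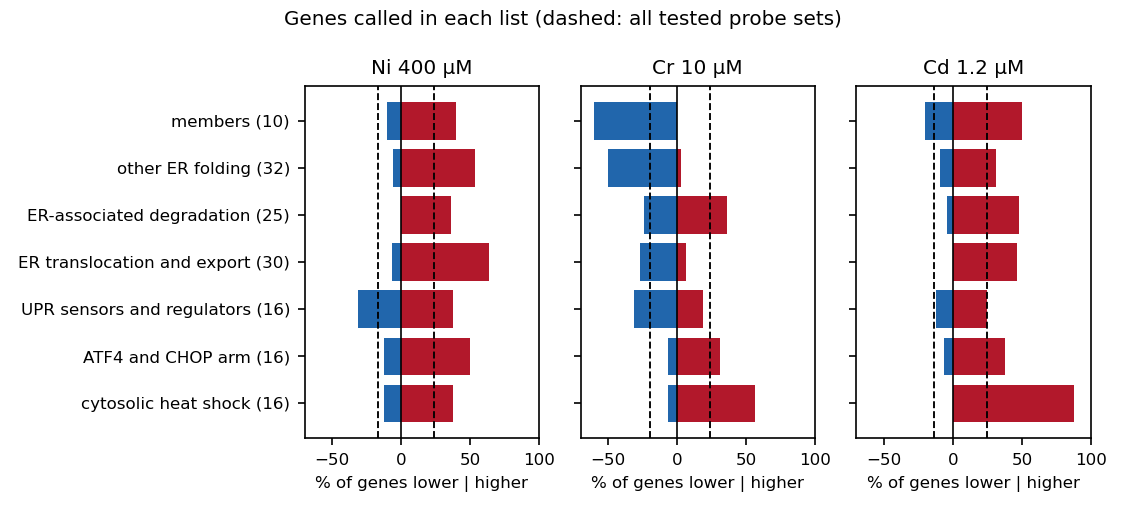
Share of the tested genes of each list called higher (right, red) or lower (left, blue) at the high concentration of nickel, chromium and cadmium, with the number of genes tested in brackets and dashed lines at the shares of all tested probe sets. In chromium the members and the other ER folding genes lean left (6 of 10 and 16 of 32 lower), and in cadmium the cytosolic heat shock genes lean right (14 of 16 higher).

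The members' likeness to Hspa5 was described by the Pearson correlation of their changes over the 9 exposures, which share their controls. Hsp90b1 was the closest member, at 0.980, and stood at rank 4 of 12222 tested single-gene probe sets, Hspa5 itself being rank 1. Both Hyou1 probe sets (0.872 and 0.869), Pdia3 1398788_at (0.869) and Sdf2l1 (0.864) followed, then Dnajc3 (0.738), Xbp1 (0.709), Calr (0.674), Pdia4 (0.420) and Pdia3 1392920_at (0.358). Herpud1 alone was negative, at -0.619. The 5 genes of no list with the closest pattern were Iftap (0.985), Nudt18 (0.980), Ppp1r11 (0.978), Gpr137 (0.969) and Rras (0.968). With 9 points set mostly by the high concentrations, these values only order the genes.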

How the data were processed

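The deposited values are log2 expression, made by the authors with RMA in Partek from Affymetrix rat arrays, per the labels and the methods. The members and gene lists were chosen with earlier results of these data known. Conditions followed the displaced order of titles: with it, mean log2 ratios recomputed over 992 probe sets differed from the study's supplementary means by at most 7.5e-06, and with the deposited order by up to 4.32. Probe sets were named from the platform annotation (20826 name 1 gene, 436 several, 9780 none). In place of detection calls, the upper 15521 probe sets were kept, ranked by the highest, over conditions, of the lowest array, which gave a floor of 6.01. Each metal's fit (limma 3.58.1, R 4.3.3) held the concentration and the replicate number as a block, on 9 residual degrees of freedom. The methods fit dose and batch, and whether their batches are the replicate numbers is not given in the sources used here. Control arrays of a replicate were averaged. P-values were adjusted by Benjamini-Hochberg. Lists used the probe set of highest mean per gene. From each list up to 4 genes with the largest called change were eligible to be named, and not all are. Canx, Zfand2a and Creld2 were named after their values were seen. The fit was run on simulated data with planted changes of 1 on the log2 scale, larger than most member changes reported here. That run does not bear on smaller changes. The number of arrays limits the precision. Alternatives were the deposited titles, the first 20 columns, no replicate block, other uses of the controls, 1 fit over all conditions, other filters, quantile normalization, the methods' rule, and leaving out each replicate or the repeated arrays.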

Additional observations from a re-analysis of the deposited data

Results flagged for a closer look

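In 3 of the 120 groups of arrays of a member probe set, 1 array lay far from the others by Dixon's ratio, the gap over the range. Chance gives about 1 group in 20, so the 3 are fewer than that rate gives. They are listed as a description. In Pdia3 1398788_at at 0.275 µM chromium the repeated array of replicate 4 read 11.48 against 12.08 to 12.13 on the others, a gap of 0.917 of the whole range. In the same probe set at 0.55 µM cadmium the repeated array of replicate 2 read 11.59 against 12.07 to 12.17, a gap of 0.834 of the range. In Hyou1 1370665_at at 1 µM chromium the array of replicate 2, which is no repeated array, read 7.05 against 6.37 to 6.44, a gap of 0.902 of the range.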

How the results depend on the processing

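With the titles as deposited, every count of called member probe sets was 0 except 1 lower in nickel than in chromium (Herpud1), and the sign turned in cadmium at 1.2 µM for Xbp1 (0.03), Hyou1 1370665_at (-0.01) and Hyou1 1371442_at (-0.05), in cadmium minus nickel for Hspa5 (-0.08), Dnajc3 (-0.32) and both Hyou1 probe sets (-0.10), and in cadmium minus chromium for Dnajc3 (-0.07). Without the 4 repeated arrays Hyou1 1371442_at at 400 µM nickel turned to 0.19. Counts of member probe sets moved by over 1.5 times as follows. In the first 20 columns 2 were lower at 400 µM nickel and 1 higher at 10 µM chromium. Cadmium at 0.55 and at 1.2 µM has a single array there, so its counts, some of which also moved, are not given. Deviations of arrays of the same replicate number had a median r of 0.50, with 169 of 180 pairs over 0.1, and those of different numbers -0.27, with 167 of 540 over 0.1. Most pairs of the same number thus deviated together, but not every one was over 0.1. Among such pairs without a repeated array, 145 of 147 were over 0.1 and the lowest r was -0.02. Most of the exceptions thus involve the repeated arrays, which the main fits also held in the block of their replicate number. Deviations from a condition mean cancel out within the condition, which by itself pulls r between different numbers down. The main fits held the replicate number as a block, though the sources used here do not say that the numbers pair the arrays. With no replicate block 0 were lower at 400 µM nickel and 0 higher and 0 lower at 0.55 µM cadmium, and 18 of the 21 calls at high concentrations held. Against the Control 1 arrays alone 2, and against the Control 2 arrays alone 0, were higher at 0.55 µM cadmium. With 8 separate control arrays 2 were higher at 140 µM nickel, 3 lower at 400 µM nickel, and 2 higher and 2 lower at 0.55 µM cadmium. In 1 fit over all conditions, and without the repeated arrays, 2 were lower at 400 µM nickel. Without the repeated arrays, and after quantile normalization, 1 was lower in cadmium than in chromium. By the methods' rule 0 were higher and 0 lower at 400 µM nickel, 0 lower at 10 µM chromium, and 1 higher and 0 lower at 1.2 µM cadmium. Leaving out 1 replicate at a time gave 4 to 6 higher and 0 to 2 lower at 400 µM nickel, 0 to 1 higher and 5 to 8 lower at 10 µM chromium, 0 to 1 in each direction at 0.55 µM cadmium, and 5 to 7 higher and 1 to 2 lower at 1.2 µM cadmium. Between metals it gave 3 to 6 higher and 1 to 2 lower for cadmium minus nickel, 9 to 10 and 0 to 1 for cadmium minus chromium, and 8 to 11 and 0 to 1 for nickel minus chromium. Of 36 list counts at the high concentrations, 3 stayed within 1.5 times with the titles as deposited, 27 in the first 20 columns, 22 with no replicate block, 31 without the repeated arrays, and 24, 21, 25 and 32 without replicate 1, 2, 3 and 4. The causes were not tested. Signal near the filter level limits Hyou1 1370665_at and Pdia3 1392920_at.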
